A study of Mus musculus with 21 samples.

Results

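The comparison set 2 md MEPA clones with a CRISPR deletion in exon 9 of Rbm10 (KO3 and KO4) against 2 clones with a deletion in exon 3 (KO1 and KO2). These 4 clones are 4 of the 21 samples of the series, and they were taken by the clone names in the sample titles and the exon that the series' design text gives for each. All 4 are labelled RBM10 KO and are independent lines, so each clone is 1 sample of its kind and the 2 clones of a deletion are the only replicates. The md MEPA line came from the mandibular part of the pharyngeal arch of mouse embryos at 11.5 d.p.c., bred from CD1 mothers and an Immortomouse father, whose transgene gives a heat-sensitive immortalising protein under an interferon-inducible promoter. Every md sample, WT included, was grown at 33 °C in 5% CO2 with 100 U/ml murine interferon. The 3 WT libraries of the same line serve here as the reference level. Nothing in the labels says that they were separate cultures, and their spread may be technical. The other samples, iCLIP of RBM10 and RNA-seq of ES cells, are not used here.

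RBM10 is an X-linked RNA-binding protein that acts mainly as a regulator of exon skipping, and loss-of-function changes in its human gene cause a syndrome with cleft palate and jaw anomalies. The mandibular arch is filled by mesenchyme of neural crest origin, which forms bone, cartilage, tendon and connective tissue of the lower jaw. Its cells are patterned by Dlx, Hand and Prrx factors and by FGF, BMP, Wnt and endothelin signals, and in the embryo the ectomesenchyme of this arch is known for lacking Hox gene expression. The question of the comparison was which of these programmes differed between clones that share the targeted gene and differ in the deleted exon.

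The deleted stretches lie in exons whose reference sequence is shown here to place both deletions along the gene; the labels give the exon number and neither the deleted bases nor the transcript that the numbers count on. Exon 3 is the same coding exon in the annotated transcripts ENSMUST00000084383 and ENSMUST00000115375, chrX:20212857-20213040 (mm9, plus strand), 184 bases. Exon 9 is chrX:20222563-20222723, 161 bases, in ENSMUST00000084383, and chrX:20221991-20222167, 177 bases, in ENSMUST00000115375, which has 1 more exon upstream. All 3 exons are coding, and of the 3 lengths only 177 bases is a multiple of 3. The sequences come from the reference genome and hold no deletion. Other annotated Rbm10 transcripts, such as ENSMUST00000082089 (0.574 to 3.87 TPM in the md libraries), are not shown. The exons given here may therefore not be all that the numbers could mean.
Rbm10 exon 3: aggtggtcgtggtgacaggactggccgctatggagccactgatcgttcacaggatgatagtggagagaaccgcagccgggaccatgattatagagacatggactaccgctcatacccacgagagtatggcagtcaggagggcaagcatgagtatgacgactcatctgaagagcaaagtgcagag
Rbm10 exon 9 of ENSMUST00000084383: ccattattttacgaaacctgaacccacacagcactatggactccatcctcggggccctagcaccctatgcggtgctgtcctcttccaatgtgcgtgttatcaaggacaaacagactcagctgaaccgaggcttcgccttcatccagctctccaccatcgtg
Rbm10 exon 9 of ENSMUST00000115375: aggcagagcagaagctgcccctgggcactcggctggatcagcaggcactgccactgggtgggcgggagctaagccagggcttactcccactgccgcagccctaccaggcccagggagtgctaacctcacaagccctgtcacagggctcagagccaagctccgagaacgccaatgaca

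Rbm10 itself (ENSMUSG00000031060.9, chrX:20194629-20228027) was lower in the exon 9 clones. KO1 held 23.2 TPM and KO2 19.7 TPM, KO3 7.20 TPM and KO4 3.49 TPM, and the WT libraries 21.4, 23.2 and 23.7 TPM. TPM is the authors' relative abundance of a transcript, scaled for its length and to the library's total, and was summed here over a gene's transcripts. The pairs did not overlap, and the exon 3 clones lay at the WT level. The log2 fold change of exon 9 against exon 3 clones was -1.88 (SE 0.27, limma adjusted p = 0.0231). The call was lost when clones and WT libraries were weighted by group for their unequal spread (limma adjusted p = 0.101). ENSMUST00000084383 carried most of the RNA, at 18.8 and 15.4 TPM in the exon 3 clones and 4.49 and 2.55 TPM in the exon 9 clones. A deletion of a few bases need not lower a transcript's TPM, so the values of KO1 and KO2 do not check their labels.

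Across the transcriptome, 12478 genes reached 1 TPM in at least 2 of the 7 md libraries, and 559 of them (4.48%) passed the test between the clone pairs (limma on log2(TPM + 1), Benjamini-Hochberg adjusted p under 0.05). Of these, 229 (1.84%) were higher and 330 (2.64%) lower in the exon 9 clones, and a fold change on this scale understates the change of low genes. The median log2 fold change over all tested genes was -0.06. The count rests on the tight WT libraries, whose values entered the estimate of the spread. The median SD of a gene on the log2 scale was 0.0758 between WT libraries, 0.179 between the exon 3 clones and 0.236 between the exon 9 clones. Single libraries moved it, to between 59 and 68 genes without 1 WT library, 296 without KO1, 1180 without KO3 and 2271 without KO4. Separate spreads here means that the clones and the WT libraries each got a weight common to all genes. The WT values still entered the spread of each gene. With separate spreads for clones and WT, 40 genes (0.321%) passed, 24 higher and 16 lower, and all 40 were among the 559. A fit on the 4 clones alone called 10 genes, 8 higher and 2 lower and all among the 40. The 40 are therefore given most room. In bulk RNA, fewer cells of a type and less RNA per cell cannot be told apart.

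**Figure D1:**
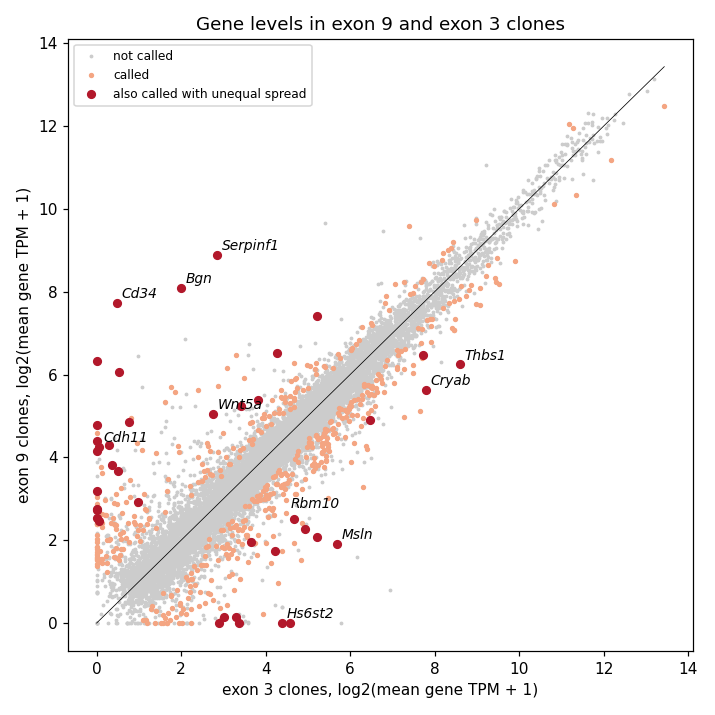
Mean gene TPM of the 2 exon 9 clones against that of the 2 exon 3 clones, both as log2(mean TPM + 1), for the 12478 tested genes. Points in 2 red tones mark the 559 called genes, the darker ones the 40 that also passed with separate spreads; Cd34, Bgn and Serpinf1 lie far above the diagonal.

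The pairs of clones did not overlap in any of the 559 called genes, which passing the test between these same pairs nearly requires. Among all tested genes, 5360 (43%) had pairs that did not overlap. In 394 of the 559 (70.5%) all 3 WT libraries lay between the pairs, and so did they in 33 of the 40 genes that passed with separate spreads. Among all 5360 genes without overlap the WT libraries lay between in 1053 (19.6%), many of which have a narrow gap. The median size of the log2 fold change was 1.19 in the called genes and 0.451 in the 5360, so these shares do not compare like with like. In the called genes, which were picked for a wide gap, the WT level was mostly intermediate, with one deletion pair above it and the other below. In 32 called genes both exon 3 clones were listed at 0, and 29 of these were above 0 in every WT library. In 14 both exon 9 clones were listed at 0, all above 0 in every WT library. Among the 5360 genes without overlap, 45 were at 0 in both exon 3 clones and 31 in both exon 9 clones. A pair listed at 0 has no spread, which lowers the SE of such a gene and makes a call easier.

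The called gene with the highest log2 fold change was Cd34. Cd34 (chr1:196765015-196787486, mm9), a sialomucin of fibroblast progenitors and of blood and vessel cells, had 0.151 TPM in KO1 and 0.628 TPM in KO2, 234 TPM in KO3 and 190 TPM in KO4, and 37.7, 45.8 and 48.1 TPM in WT. The exon 3 clones had nearly none of it and both exon 9 clones stood above every WT library (log2 fold change 7.27 ± 0.22 SE, adjusted p = 9.18e-05 by limma, 0.00118 with separate spreads). Bgn (chrX:70728941-70741272), the small matrix proteoglycan biglycan, had 2.75 and 3.29 TPM in the exon 3 clones, 318 and 227 TPM in the exon 9 clones and 66.3 to 80.6 TPM in WT. It showed the same order, with WT in between (log2 fold change 6.07 ± 0.19 SE, adjusted p = 9.18e-05 by limma, 0.00118 with separate spreads). Serpinf1 (chr11:75223271-75236203), a secreted serpin known as pigment epithelium-derived factor, had 8.61 and 3.84 TPM in the exon 3 clones, 387 and 557 TPM in the exon 9 clones and 53.2 to 63.3 TPM in WT. It rose by 6.09 on the log2 scale (SE 0.33, limma adjusted p = 0.00106, 0.00271 with separate spreads). All 3 genes were also called on the 4 clones alone. So were 2 pseudogenes, which the rule for naming left out and whose reads cannot be told with certainty from those of their parent genes. Hspe1-ps6 was listed at 0 in both exon 3 clones and had 107 and 51.2 TPM in the exon 9 clones and 13.0 to 17.1 TPM in WT. Pcna-ps2 had 0.327 and 0.550 TPM, 88.1 and 44.1 TPM, and 16.8 to 21.1 TPM (log2 fold change 5.47 ± 0.31 SE, adjusted p = 0.00134 by limma, 0.00591 with separate spreads).

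Adhesion and other surface molecules followed. Cdh11 (chr8:105156895-105309011), cadherin-11, the cadherin of mesenchyme and osteoblasts, was listed at 0 in KO1 and had 0.0683 TPM in KO2, 18.6 TPM in KO3, 17.4 TPM in KO4 and 3.57 to 3.78 TPM in WT. It was the 1 called member of 19 tested adhesion genes (log2 fold change 4.20 ± 0.14 SE, adjusted p = 9.18e-05 by limma, 0.00118 with separate spreads). That was 5.26% of the list, beside 4.48% of all tested genes. Pdpn, the mucin-like podoplanin, was listed at 0 in both exon 3 clones and had 21.5 and 12.1 TPM in the exon 9 clones and 1.41 to 1.56 TPM in WT (limma adjusted p = 0.00161). Pear1, a receptor with EGF-like repeats, had 0.128 and 0.340 TPM in the exon 3 clones and 19 and 18.2 TPM in the exon 9 clones (log2 fold change 4.00 ± 0.17 SE, adjusted p = 3.39e-04 by limma). Slc1a3, a glutamate transporter, had 0.172 and 0.415 TPM in the exon 3 clones and 15.5 and 10.8 TPM in the exon 9 clones. These 3 also passed with separate spreads.

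Some genes sat side by side in the genome and moved together. Armcx3 and Armcx1, neighbours on chromosome X that encode armadillo-repeat proteins of the mitochondrial surface, were both listed at 0 in KO1 and KO2. Armcx3 had 21.1 and 18.8 TPM in the exon 9 clones and 3.30 to 3.57 TPM in WT, and Armcx1 had 9.31 and 6.83 TPM against 1.92 to 2.28 TPM. Tmem45a, Hsd17b11 and Eid2 were also listed at 0 in both exon 3 clones and passed with separate spreads. In Eid2, an inhibitor of differentiation factor, the WT libraries (5.47 to 5.83 TPM) lay within the range of the exon 9 clones (7.98 and 3.56 TPM), so that only the exon 3 clones stood apart. Clip3, a microtubule-binding protein, had 1.39 TPM in KO1 and was listed at 0 in KO2, with 24.3 and 31.8 TPM in the exon 9 clones and 6.97 to 7.77 TPM in WT.

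The genes lowest in the exon 9 clones included several of the cell surface. Msln (chr17:25885559-25891272), the mesothelial surface protein mesothelin, had 48.3 and 53.5 TPM in the exon 3 clones, 2.13 and 3.39 TPM in the exon 9 clones and 36.5 to 37.3 TPM in WT. It fell by 3.81 on the log2 scale (SE 0.18, limma adjusted p = 4.87e-04, 0.00118 with separate spreads) and was called on the clones alone. Hs6st2, which adds sulphate to heparan sulphate chains, had 22.5 and 17.6 TPM in the exon 3 clones and 10.0 to 12.6 TPM in WT, and was listed at 0 in both exon 9 clones (limma adjusted p = 2.69e-04). Ptprf, a receptor tyrosine phosphatase of cell contacts, and Mal, a protein of apical membrane transport, were also listed at 0 in both exon 9 clones. Ptprf had 15.4 and 30.7 TPM in the exon 3 clones and 19.4 to 22.3 TPM in WT, and Mal had 7.29 and 11.5 TPM against 3.98 to 4.33 TPM. Each passed with separate spreads.

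Among the small heat shock proteins, Cryab (chr9:50560863-50564738), alpha-B-crystallin, had 223 and 217 TPM in the exon 3 clones, 53.1 and 44.0 TPM in the exon 9 clones and 103 to 122 TPM in WT (log2 fold change -2.16 ± 0.14 SE, adjusted p = 0.00165 by limma, 0.0448 with separate spreads). Hspb2, which is read from the opposite strand directly beside it (chr9:50559177-50560459), had 36.2 and 22.6 TPM, 4.69 and 2.94 TPM, and 9.82 to 10.6 TPM in the same groups. Both were above WT in the exon 3 clones and below it in the exon 9 clones. Dmpk, the kinase mutated by repeat expansion in human myotonic dystrophy, had 40.4 and 31.5 TPM in the exon 3 clones, 2.33 and 4.12 TPM in the exon 9 clones and 12.7 to 14.8 TPM in WT (log2 fold change -3.15 ± 0.23 SE, adjusted p = 0.00289 by limma). Chrna5, a nicotinic receptor subunit, had 6.40 and 11.3 TPM against 0.0777 and 0.134 TPM (log2 fold change -3.11 ± 0.25 SE, adjusted p = 0.00409 by limma). All 4 passed with separate spreads.

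The rule for naming genes also took 5 that did not pass with separate spreads or hold short RNAs. Aim2, a DNA sensor induced by interferon, was listed at 0 in KO1 and had 4.11 TPM in KO2, 26.3 TPM in KO3 and 53.1 TPM in KO4 (adjusted p = 0.0336 by limma, 0.106 with separate spreads). Cadm1, an immunoglobulin-type adhesion molecule, had 28.9 and 25.8 TPM in the exon 3 clones and 3.66 and 0.131 TPM in the exon 9 clones (adjusted p = 0.0295 by limma, 0.122 with separate spreads). Als2cl had 18.3 and 18.7 TPM against 0.0582 and 1.85 TPM (adjusted p = 0.0157 by limma, 0.0554 with separate spreads). The small nucleolar RNA Snord57 and the mitochondrial transfer RNA mt-Th were also lower, but these libraries selected polyadenylated RNA, and such RNAs are poorly measured by it.

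**Figure D2:**
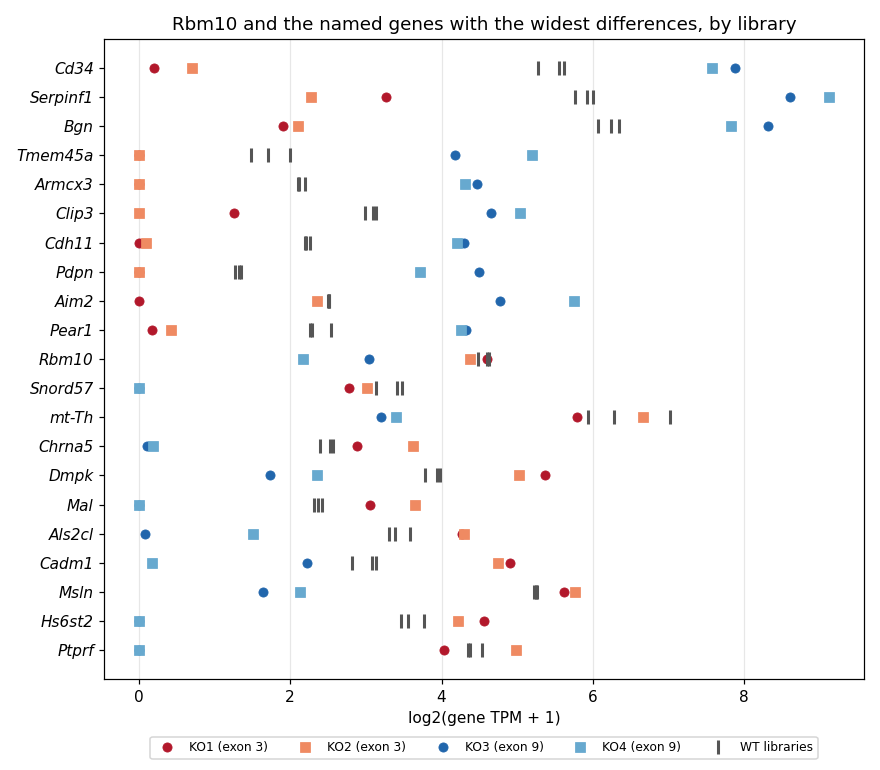
Gene TPM as log2(TPM + 1) in each md library for Rbm10 and the 20 named genes with the widest log2 fold changes in the 2 directions. Circles and squares are the 4 clones (red exon 3, blue exon 9) and vertical ticks the 3 WT libraries; in most rows the ticks lie between red and blue.

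Matrix genes moved in both directions. Of 29 tested extracellular matrix genes, 6 were called higher (Bgn, Vcan, Col6a2, Nid1, Col4a2 and Loxl3) and 3 lower (Thbs1, Loxl4 and Ecm1) in the exon 9 clones. The called share of the list was 31.0%, beside 4.48% of all tested genes. Its median log2 fold change was 0.04 beside -0.06 for all genes. Only Bgn and Thbs1 of these 9 passed with separate spreads. Vcan, the large proteoglycan versican of early mesenchyme, had 0.590 and 0.183 TPM in the exon 3 clones, 6.19 and 6.58 TPM in the exon 9 clones and 3.01 to 3.87 TPM in WT (adjusted p = 0.00444 by limma, 0.0694 with separate spreads). Thbs1, thrombospondin-1, a matrix protein that activates latent TGF-beta, had 478 and 300 TPM in the exon 3 clones, 63.6 and 86.3 TPM in the exon 9 clones and 321 to 332 TPM in WT. It fell by 2.34 on the log2 scale (SE 0.24, limma adjusted p = 0.00948, 0.0258 with separate spreads), and WT lay inside the range of the exon 3 clones. The basement membrane genes Col4a2 and Nid1 were called higher and their partner Col4a1, at 4.74 and 16.5 TPM against 36.0 and 33.8 TPM, was not (limma adjusted p = 0.0823).

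Of 16 matrix remodelling genes, 1 was called higher (Serpinf1) and 2 lower, 18.8% of the list beside 4.48% of all tested genes. Timp2, an inhibitor of matrix metalloproteinases, was among the lower ones, with 404 and 453 TPM in the exon 3 clones, 210 and 261 TPM in the exon 9 clones and 293 to 310 TPM in WT (log2 fold change -0.87 ± 0.13 SE, adjusted p = 0.0271 by limma, 0.150 with separate spreads). Of 13 tested fibroblast markers, Cd34, Col3a1 and Fn1 were called higher and Ly6a and S100a4 lower, with a median of -0.35. Only Cd34 of these 5 passed with separate spreads, and the called share of the list was 38.5%. Col3a1, the chain of type III collagen, had 14.0 and 3.85 TPM in the exon 3 clones and 55.4 and 121 TPM in the exon 9 clones. The large collagen genes Col1a1 (457, 265, 174 and 799 TPM in KO1 to KO4) and Col1a2 (1848, 514, 379 and 1191 TPM) had pairs that overlapped.

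Contractile and tendon genes were called in 1 direction. Acta2, smooth muscle actin, had 3.24 and 1.51 TPM in the exon 3 clones, 27.4 and 74.4 TPM in the exon 9 clones and 13.9 to 21.8 TPM in WT (log2 fold change 3.83 ± 0.49 SE, adjusted p = 0.0180 by limma, 0.139 with separate spreads). Acta2 and the actin-binding Tagln were the 2 called of 7 tested smooth muscle genes, both higher. The called share was 28.6% of the smooth muscle list and 33.3% of the tendon list, beside 4.48% of all tested genes. Of 6 tested tendon genes, the matrix proteins Tnc and Aspn were called higher; Scx, the transcription factor of tendon progenitors, had 34.8 and 24.1 TPM in the exon 3 clones and 1.16 and 10.9 TPM in the exon 9 clones and did not pass (limma adjusted p = 0.101). None of the 4 called genes passed with separate spreads. The late smooth muscle genes Myh11, Cnn1 and Des stayed at or under 0.305 TPM in every library and were not tested. Myl9, a myosin light chain, had 0.113 and 0.805 TPM in the exon 3 clones and 2.48 and 7.15 TPM in the exon 9 clones and did not pass (limma adjusted p = 0.0678).

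Among signalling genes, 11.8% of the Wnt list, 12% of the BMP and TGF-beta list and 9.09% of the growth factor list were called, beside 4.48% of all tested genes. Of 17 Wnt pathway genes, the ligand Wnt5a, which drives outgrowth of limb and face, was called higher and the ligand Wnt4 lower (adjusted p = 0.136 for Wnt4 with separate spreads). Wnt5a had 5.43 and 5.98 TPM in the exon 3 clones, 39.0 and 25.4 TPM in the exon 9 clones and 25.4 to 27.0 TPM in WT. KO4 lay at the WT level, KO3 above it and both exon 3 clones below it (log2 fold change 2.28 ± 0.20 SE, adjusted p = 0.00567 by limma, 0.0242 with separate spreads). Of 25 BMP and TGF-beta genes 3 were called lower, the ligand subunit Inhbb, the transducer Smad9 and the target Id2, none with separate spreads. Id2 had 95.8 and 95.6 TPM in the exon 3 clones, 46.2 and 26.9 TPM in the exon 9 clones and 67.4 to 75.9 TPM in WT. Of 22 growth factor genes, Gdnf was called lower and the binding protein Igfbp6 higher, neither with separate spreads, and no member of the Hedgehog list (7 tested), the Notch list (9) or the YAP list (12) was called.

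**Figure D3:**
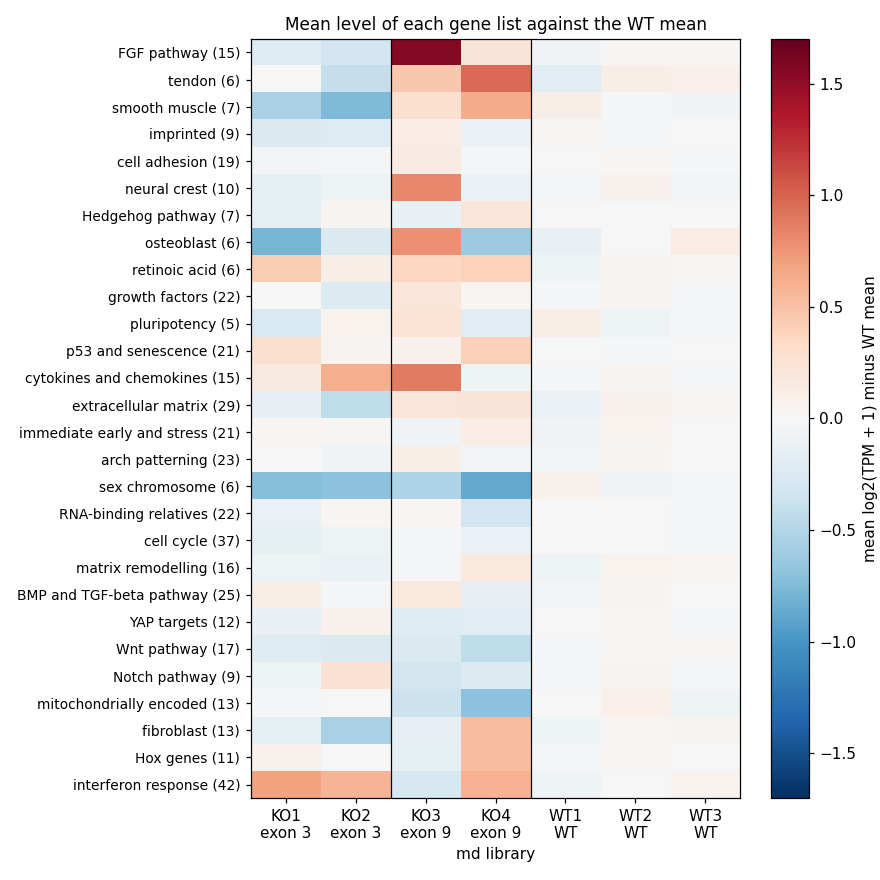
Mean log2(TPM + 1) of each gene list with at least 5 tested members (number in brackets) in each md library, as the difference from the mean of the 3 WT libraries; lists are ordered by their median log2 fold change of exon 9 against exon 3 clones. The FGF list is highest in KO3 and slightly above WT in KO4, and the interferon list is above WT in 3 clones and below it in KO3.

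None of 23 tested arch patterning genes and none of 10 neural crest genes was called, which with 2 clones a deletion does not show that they were alike. Prrx1, a factor of limb and jaw mesenchyme, had 59.4, 65.0, 90.2 and 56.4 TPM in KO1 to KO4 and 47.3 to 49.8 TPM in WT, and Dlx2, a Dlx factor of the arches, had 11.4, 11.6, 10.8 and 12.8 TPM against 8.72 to 9.51 TPM. The lowest p of the patterning list belonged to Osr1, a factor of palate and limb mesenchyme (4.33, 5.92, 34.0 and 12.3 TPM; limma adjusted p = 0.0665), whose pairs did not overlap. The mandible factors Hand1, Hand2 and Gsc were listed at 0 in all 7 libraries, and Dlx5 stayed at or under 0.231 TPM. Of the markers of other cell types, Epcam and Esrp1 (epithelium), Cdh5 (endothelium), Ptprc (leukocytes), Myod1 (skeletal muscle), Sox10 (glia) and Pou5f1 (pluripotent cells) were listed at 0 in every library. In all, 8 of 22 epithelial, 9 of 15 endothelial, 5 of 14 leukocyte, 12 of 19 skeletal muscle, 2 of 11 glia and 8 of 15 pluripotency markers were. Other members were present, such as the glial myelin gene Pmp22 at 22.3 to 94.0 TPM, the neuronal tubulin Tubb3 at 15.5 to 41.6 TPM, Klf4 at 21.3 to 48.5 TPM, the epithelial cadherin Cdh3 at 0.136 to 12.0 TPM, Cd68 at 0.875 to 10.6 TPM and the endothelial receptor Flt1 at 0.395 to 8.18 TPM. The summed level of the epithelial list was 18.3 and 29.2 TPM in the exon 3 clones, 7.40 and 68.8 TPM in the exon 9 clones and 41.2 to 42.8 TPM in WT, and that of the leukocyte list 21.0 and 16.7 TPM, 13.6 and 12.2 TPM, and 8.74 to 10.6 TPM. The part of such cells in the results was not tested.

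The Hox genes went against the label of a mandibular arch line in all libraries, WT included. Hoxb9 had 40.8, 35.5, 17.2 and 39.8 TPM in KO1 to KO4 and 29.9 to 31.0 TPM in WT. Of 11 tested Hox genes, Hoxc11 and Hoxc9 were called higher and Hoxd9 and Hoxd8 lower in the exon 9 clones. The called share was 36.4%, beside 4.48% of all tested genes. Hoxc11 was listed at 0 in both exon 3 clones and had 3.84 and 5.85 TPM in the exon 9 clones and 0.264 to 0.339 TPM in WT (adjusted p = 0.00469 by limma, 0.0496 with separate spreads). Hoxd9 had 7.44 and 8.77 TPM in the exon 3 clones, 2.11 and 2.25 TPM in the exon 9 clones and 6.90 to 7.54 TPM in WT (adjusted p = 0.00662 by limma, 0.0735 with separate spreads). Hoxc9 and Hoxd8 did not pass with separate spreads either. The called HoxC and HoxD genes ran in opposite directions, while Hoxb6 to Hoxb9 did not pass.

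Interferon response genes were lower in part. Of 42 tested, 6 were called lower in the exon 9 clones (Gbp2, Gbp3, Gbp6, Gbp7, Igtp and Irgm1) and 1 higher (Cxcl9). The called share was 16.7%, beside 4.48% of all tested genes. In the list 32 had a negative fold change, and the median was -0.59 beside -0.06 for all genes. The 6 encode guanylate-binding proteins and immunity-related GTPases, which are induced by interferon-gamma and act on intracellular pathogens. Gbp2 had 679 and 723 TPM in the exon 3 clones, 246 and 358 TPM in the exon 9 clones and 354 to 389 TPM in WT (log2 fold change -1.24 ± 0.18 SE, adjusted p = 0.0224 by limma). Igtp had 753 and 716 TPM in the exon 3 clones, 237 and 341 TPM in the exon 9 clones and 354 to 411 TPM in WT (log2 fold change -1.37 ± 0.18 SE, adjusted p = 0.0189 by limma). In both genes the exon 3 clones stood above WT and the exon 9 clones at or below it. None of the 7 called genes passed with separate spreads (adjusted p from 0.131 to 0.341).

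The exon 9 clones did not share the interferon level. Averaged over the 42 genes, log2(TPM + 1) came to 6.41 in KO1, 6.29 in KO2, 5.41 in KO3, 6.30 in KO4 and 5.65 to 5.78 in WT. KO3 was the lowest of the 7 libraries in 28 of the 42 genes, against 23.9% of all tested genes. Isg15, a ubiquitin-like antiviral protein, had 178, 140, 30.0 and 241 TPM in KO1 to KO4 and did not pass (limma adjusted p = 0.575). All cultures held the same dose of interferon per the labels, and the culture state of single samples was not tested. Gbp2, Gbp3 and Gbp7 lie on chromosome 3, whose median gene level was lower in the exon 9 clones, and with every chromosome centred 4 of the 6 were still called lower (Gbp2, Gbp3, Gbp6 and Igtp). Reads of the similar Gbp genes may have been divided among them by the authors' quantifier.

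The promoters of 3 of the interferon genes called lower are shown because they carry the letters of interferon-response motifs. Promoters run from 250 bases before to 50 after the gene's start (RefSeq, GRCm38.p6); capitals mark GAAA, any 2 bases and GAAA again on either strand, the core of the interferon-stimulated response element, and TTCNNNGAA, the core of the GAS site, whose letters read alike on both strands; overlapping matches merge in the capitals. Of 36 tested interferon genes with a promoter in the table, 18 (50%) held the first motif, and so did all 5 of the called lower genes that had one. It was in 20 of 211 promoters (9.48%) of all genes called lower, the 5 interferon genes included, and 1 of 151 (0.662%) of those called higher. Of the tested genes with a promoter it was in 246 of 7859 (3.13%), and of all promoters in the table in 943 of 27025 (3.49%). The second motif was in 10 of the 36 (27.8%), in 7.04% of the promoters of tested genes and in 8.47% of all promoters. A match describes the letters only.
Gbp2 promoter, chr3:142620413-142620712, plus strand: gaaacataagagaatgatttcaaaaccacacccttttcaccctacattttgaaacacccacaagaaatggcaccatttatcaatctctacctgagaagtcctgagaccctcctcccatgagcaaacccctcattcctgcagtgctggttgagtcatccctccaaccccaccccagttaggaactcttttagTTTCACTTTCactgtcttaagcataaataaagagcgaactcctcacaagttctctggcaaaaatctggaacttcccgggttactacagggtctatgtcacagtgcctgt
Igtp promoter, chr11:58199306-58199605, plus strand: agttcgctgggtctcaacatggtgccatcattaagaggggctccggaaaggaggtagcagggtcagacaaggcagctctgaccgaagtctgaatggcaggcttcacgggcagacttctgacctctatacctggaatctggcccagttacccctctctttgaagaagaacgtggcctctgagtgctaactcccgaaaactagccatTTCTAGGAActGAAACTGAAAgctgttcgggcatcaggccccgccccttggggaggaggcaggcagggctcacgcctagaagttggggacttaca
Irgm1 promoter, chr11:48871371-48871670, minus strand: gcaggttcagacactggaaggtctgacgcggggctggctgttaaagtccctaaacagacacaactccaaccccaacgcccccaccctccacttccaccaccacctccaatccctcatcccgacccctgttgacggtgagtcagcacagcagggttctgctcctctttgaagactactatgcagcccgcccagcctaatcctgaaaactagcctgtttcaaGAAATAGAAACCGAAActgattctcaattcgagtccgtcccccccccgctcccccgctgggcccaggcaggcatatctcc

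The remaining lists gave 0 to 3 calls each, and no called gene among them passed with separate spreads. The called share was 5.41% of the cell cycle list, 9.09% of the RNA-binding list and 33.3% of the imprinted list. Over all tested genes it was 4.48%. Of 37 cell cycle genes, the replication clamp Pcna and the thymidylate synthase Tyms were called lower. Pcna had 336 and 361 TPM in the exon 3 clones, 218 and 217 TPM in the exon 9 clones and 250 to 287 TPM in WT. Its pseudogene Pcna-ps2 ran the other way (0.327 and 0.550 TPM against 88.1 and 44.1 TPM). How reads were divided between Pcna and Pcna-ps2 was not tested. Tyms had 210 and 194 TPM in the exon 3 clones, 127 and 87.8 TPM in the exon 9 clones and 181 to 190 TPM in WT (adjusted p = 0.0420 by limma). Cyp26b1, which degrades retinoic acid, was the 1 called of 6 retinoic acid genes, with 0.371 and 0.391 TPM against 3.27 and 1.76 TPM, and Cspg4, the pericyte proteoglycan NG2, the 1 called of 3 pericyte genes, with 0.0565 and 0.125 TPM against 6.11 and 1.82 TPM. Among 9 imprinted genes Sgce and Airn were called higher and Mcts2, which has a near-identical relative on X, lower; Sgce, epsilon-sarcoglycan, was listed at 0 in both exon 3 clones and had 4.41 and 1.69 TPM in the exon 9 clones. The splicing regulator Mbnl2 was called higher and Rbm10 lower of 22 RNA-binding genes, the pluripotency factor Klf4 higher of 5 pluripotency genes (21.3 and 24.3 TPM against 39.2 and 48.5 TPM), and the macrophage gene Cd68 lower of 4 leukocyte genes (10.6 and 7.41 TPM against 2.33 and 1.57 TPM). No gene was called of 6 osteoblast, 3 cartilage, 4 adipocyte, 4 epithelial, 3 endothelial, 3 neuron, 15 cytokine, 21 p53 and senescence, 21 immediate early and stress, 6 sex chromosome and 13 mitochondrially encoded genes, nor of the skeletal muscle, glia, melanocyte and germline lists with 1 tested gene each.

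Each clone also had genes that stood apart from all other md libraries, described by values with no test. Of the 12478 tested genes, 62 (0.497%) in KO1 and 33 (0.264%) in KO2 lay at least 1 log2 unit above all 6 other md libraries. In KO3 144 (1.15%) did, in KO4 67 (0.537%) and in the WT libraries 0 to 2. As far below lay 56, 45, 133 and 74 in KO1 to KO4, and 2 to 5 in WT. Genes that reached 1 TPM in a single library were not tested and are not in these counts. KO3 was the most distinct of the 4 by both counts. In KO3 the uridine phosphorylase Upp1 stood at 73.2 TPM and in no other library above 4.84 TPM, and the bone matrix protein Spp1 at 1572 TPM against 13.9 to 165 TPM. The small GTPase Rab12 had 0.402 TPM in KO3 and 21.3 TPM or more elsewhere.

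FGF pathway genes were high in KO3 and less so in KO4. Of 15 tested FGF pathway genes only the receptor-binding protein Flrt2 was called, with 1.14 and 1.28 TPM in the exon 3 clones, 7.02 TPM in KO3 and 4.57 TPM in KO4 (adjusted p = 0.0189 by limma, 0.151 with separate spreads), and the median log2 fold change of the list was 1.48. KO3 was the highest of the 7 libraries in 11 of the 15 and at least 1 log2 unit above all others in 9, against 1.15% of all tested genes. The receptor Fgfr1 had 2.58, 3.26, 62.2 and 10.7 TPM in KO1 to KO4, and 5.72 to 6.57 TPM in WT. The target factor Etv4 had 1.73, 5.00, 80.4 and 9.88 TPM and the feedback phosphatase Dusp6 0.303, 0.826, 21.6 and 2.12 TPM. KO4 lay close to WT in Etv4 and above it in Fgfr1 and Dusp6. The mesenchymal ligand Fgf7 had 43.8 TPM and the feedback inhibitor Spry2 33.0 TPM in KO3, and no other library exceeded 12.9 and 7.60 TPM. The ligand Fgf10 was listed at 0 in both exon 3 clones and had 11.6 TPM in KO3 and 1.28 TPM in KO4. KO3 was also the highest library in 7 of 10 neural crest genes, with Twist2 at 84.6 TPM against 14.3 to 30.1 TPM and the cartilage regulator Sox9 at 12.3 TPM against 0.555 to 3.36 TPM.

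KO4 was set apart by several Hox genes and by Ptn. Hoxa9 and Hoxa10, which pattern limb and trunk, had 7.31 and 14.2 TPM in KO4; Hoxa9 was listed at 0 in the other 6 libraries and Hoxa10 stayed at or under 0.130 TPM. Hoxc6, Hoxc8 and Hoxb13 had 6.60, 5.37 and 3.59 TPM in KO4 and at most 0.887 TPM elsewhere. Ptn, the secreted growth factor pleiotrophin, had 166 TPM in KO4 and 0 to 8.63 TPM elsewhere, and the receptor phosphatase Ptprd 21.6 TPM against 0 to 1.18 TPM. Keratin 14, a gene of basal epithelium, had 9.25 TPM in KO4 and 0.540 TPM or less elsewhere (Krt14), while Epcam and Krt5 were listed at 0 there too. Among the genes low in KO4, Cgref1, a secreted growth regulator, had 0.272 TPM against 8.30 to 30.5 TPM.

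The exon 3 clones each had such genes as well. In KO2 the cornified envelope precursors Sprr1b and Sprr2k, genes of stressed squamous epithelium, had 241 and 140 TPM, and no other library exceeded 6.19 and 3.82 TPM; the actin-regulating Arhgdib had 0.440 TPM in KO2 and 19 TPM or more elsewhere. In KO1 the R-spondin receptor Lgr4 had 57.0 TPM against 3.96 to 10.6 TPM, and the adhesion molecule Alcam had 1.28 TPM against 15.1 to 45.2 TPM. Igfbp7, an insulin-like growth factor binding protein, was listed at 0 in KO1 and had 8.05 TPM in KO2, 59.1 TPM in KO3 and 15.1 TPM in KO4.

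**Figure D4:**
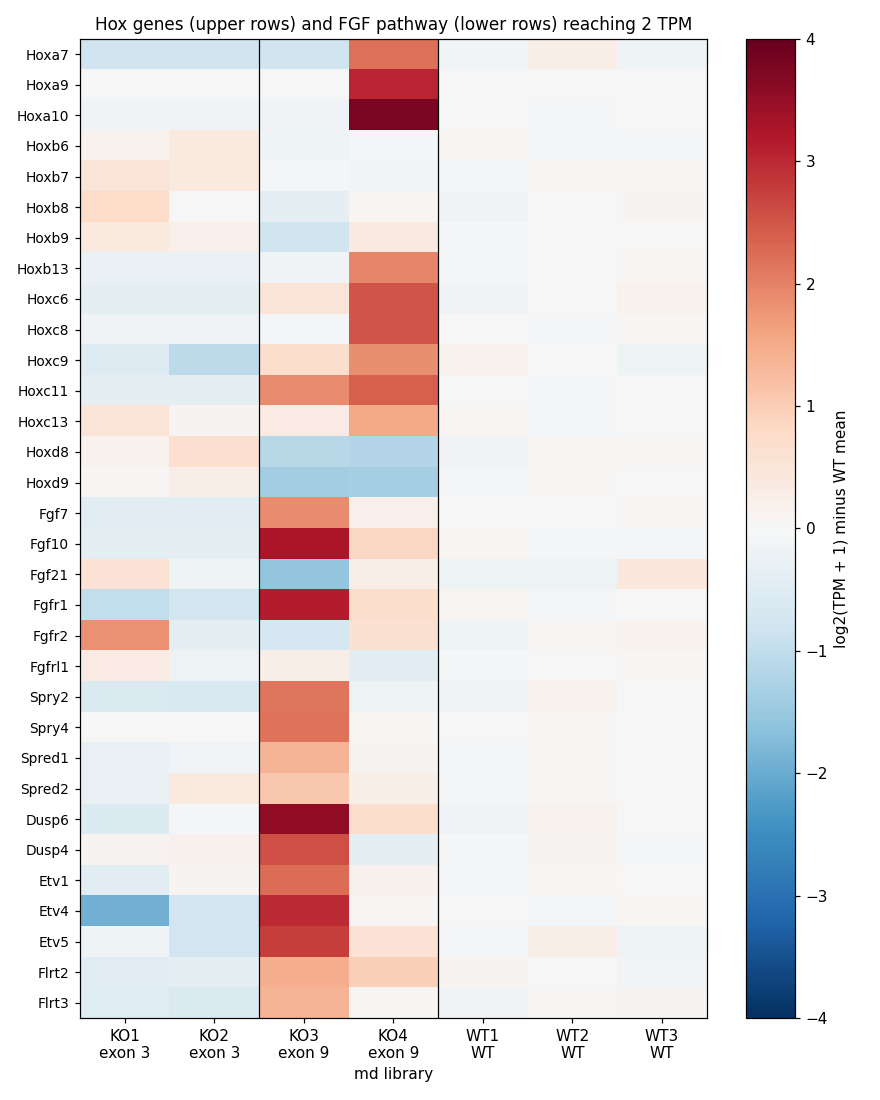
Log2(TPM + 1) minus the WT mean in each md library for the Hox and FGF pathway genes that reached 2 TPM in some library (values past the colour range take its end colour). Fgfr1, Fgf7, Fgf10, Spry2, Dusp4, Dusp6 and Etv4 are red in KO3, and Hoxa7, Hoxa9, Hoxa10 and most HoxC genes in KO4.

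Of 14906 transcripts tested as a share of their gene's TPM, 2 (0.0134%) passed, at least 10 percentage points apart (limma; 1375 had an unadjusted p under 0.05), and both belong to Arhgef25, a guanine nucleotide exchange factor of small GTPases. ENSMUST00000019611 was listed at 0 in both exon 3 clones and held 41.9% and 35.8% of the gene's TPM in the exon 9 clones and 13.0% to 19.3% in WT (difference 38.9 points, SE 3.03, limma adjusted p = 0.0393). ENSMUST00000167353 held the rest. The 2 transcripts share 15 exons and differ in the first, chr10:126626923-126627110 and chr10:126626754-126626879 (mm9, minus strand). The fit on the 4 clones alone called 0 shares, with 1064 at an unadjusted p under 0.05.

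The clones also differed over whole chromosomes. On the 20 chromosomes with at least 100 tested genes, the median of log2(TPM + 1) minus the WT mean stayed between -0.02 and 0.03 in the WT libraries, each measured against the other WT libraries. It was beyond 0.2 in size on 2 chromosomes in KO1, 4 in KO2, 1 in KO3 and 5 in KO4. KO1 had -0.41 on chromosome 8, KO2 -0.41 on chromosome 14 and 0.37 on chromosome 17, KO3 -0.30 on chromosome 3, and KO4 0.33 on chromosome 10 and -0.33 on chromosome X. On chromosome 8 in KO1 82.7% of genes lay below the WT mean, and the median was -0.43, -0.39 and -0.39 in its proximal, middle and distal genes, split in equal numbers. The shift thus ran along the whole chromosome. On X in KO4 it was -0.09 in the proximal genes, which include Rbm10, and -0.38 and -0.39 in the others. DNA copy number was not measured here.

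**Figure D5:**
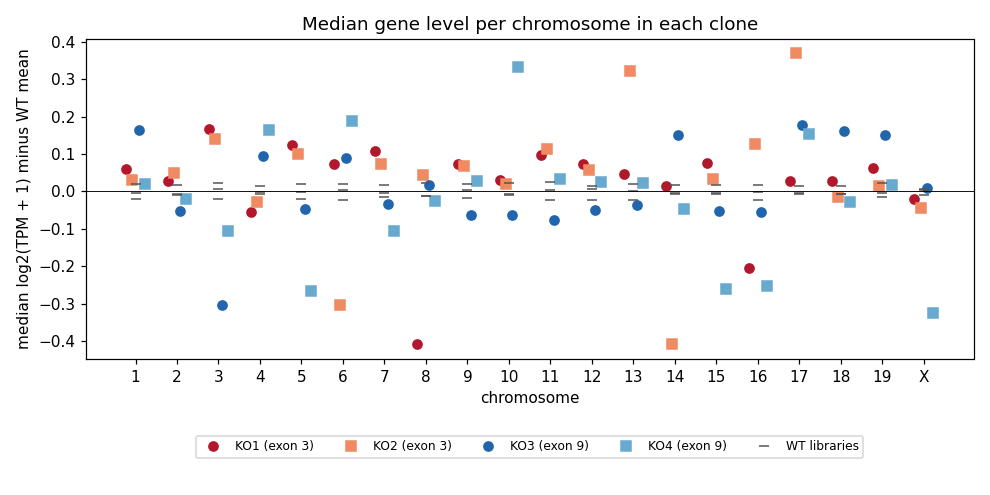
Median over tested genes of log2(TPM + 1) minus the WT mean on each chromosome, for the 4 clones (symbols) and the 3 WT libraries (short bars, each against the other WT libraries). The WT bars stay near 0, and single clones reach -0.41 on chromosomes 8 and 14 and 0.37 on chromosome 17.

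On chromosome 3 the medians of the deletion pairs stood apart, at 0.17 and 0.14 in the exon 3 clones and -0.30 and -0.11 in the exon 9 clones. They also stood apart on other chromosomes, by less, such as 4 (-0.05 and -0.03 against 0.10 and 0.16) and 7 (0.11 and 0.07 against -0.03 and -0.11). Of 632 tested genes on chromosome 3, 53 (8.39%) were called lower in the exon 9 clones and 5 (0.791%) higher, against 2.64% and 1.84% of all tested genes. On chromosome 5 45 of 796 (5.65%) were called lower, and on chromosome 6 5.50% were called higher. Single clones stood out there. The chromosome 5 median was -0.05 in KO3 and -0.27 in KO4, and that of chromosome 6 was 0.07 in KO1 and -0.30 in KO2. On chromosome 15 5.07% were called lower and on chromosome 4 4.22% higher. S100a4, Ecm1 and Smad9 also lie on chromosome 3. S100a4, a calcium-binding protein of motile fibroblasts, had 10951 and 11154 TPM in the exon 3 clones and 6639 and 4856 TPM in the exon 9 clones (limma adjusted p = 0.0304, 0.257 with separate spreads); centred per chromosome it had an adjusted p of 0.182 and Smad9 of 0.105. Ecm1 kept its call (adjusted p = 0.0161). Cd34, Bgn, Serpinf1, Cdh11 and Wnt5a kept theirs too, and with this centring 396 genes were called, 194 higher and 202 lower, 320 of them among the 559. The part of the chromosome shifts in the other calls was not tested.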

How the data were processed

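RNA-seq libraries of polyadenylated RNA came from 4 Rbm10 KO clones and 3 WT samples of md MEPA cells. The values, as the authors deposited them, are TPM of single transcripts; per the submitters' processing notes the builds were mm9 and mm10, with no role stated for either. For the aligner, quantifier and annotation, nothing is given in the sources used here. TPM keep no read depth, so the depth and its counting error are unknown. Transcripts were joined by identifier to GENCODE vM1 (mm9): 84877 of 100249 (84.7%) matched, with 90.3 to 91.5% of the TPM of each library, and gene TPM was their sum.

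A gene needed 1 TPM or more in 2 or more of the 7 libraries. Its log2(TPM + 1) entered limma 3.58.1 (R 4.3.3, eBayes with trend, 2-sided) in 1 fit of 3 group means, adjusted by Benjamini-Hochberg. Separate spreads were limma array weights, 3.86 for every WT library and 0.363 for every clone, the same for all genes. The variance of each gene was then pooled over clones and WT. These weights and the centring per chromosome were chosen after seeing the data. Transcript shares were tested likewise, in genes of at least 5 TPM in every library, at mean shares of 5 to 95%. Only the main gene fit was tested on simulated data, in which every library was given the spread of the WT libraries. The clones varied more than that, so the simulation cannot show how the calls hold at their spread. Named genes were Rbm10, the 10 highest and 10 lowest called genes with at least 5 TPM in the higher pair, pairs apart and leaving out pseudogenes, microRNAs and predicted or RIKEN symbols, up to 4 called members a list, each uncalled list's lowest p, 3 genes per clone and side that stood farthest from the other libraries, and called shares; some that the rule took are not reported here, and other genes were named after their values were seen. The comparison and the 39 gene lists were chosen with earlier results of these data known.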

Additional observations from a re-analysis of the deposited data

How the results depend on the processing

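Beside 559 called genes, a mean of at least 5 TPM gave 334, the 4 clones alone 10 (1225 at an unadjusted p under 0.05) and separate spreads 40; a pseudocount of 0.1, no filter, quantile normalization, no trend and centring per chromosome gave 396 to 511. Leaving out 1 library gave 59 to 2271: 59 to 68 without a WT library, 296 without KO1, 538 without KO2, 1180 without KO3 and 2271 without KO4, where the lone clone of a pair is assumed to vary like the other groups. The cause was not tested. Transcript shares went from 2 to 5 on the logit scale, 6 at a gene TPM of at least 1 and 0 on the clones alone, and from 0 to 6 with 1 library left out. Of 59 named and called genes, 19 kept their call with separate spreads, 8 on the clones alone and 23 to 24 without a WT library; none of the 59 turned direction under these. Of the other named genes, with 1 library left out Tnnc2 ranged from -0.72 to 0.10 and Sycp3 from -0.20 to 0.016 (log2), both uncalled. The chromosome 8 median of KO1 was -0.46 at a mean of at least 5 TPM and -0.45 with quantile normalization, that of chromosome 14 in KO2 -0.45 and -0.47, and that of chromosome 3 in KO3 -0.33 at a mean of at least 5 TPM. No paired analysis was possible because the exon 3 clones carry the numbers 1 and 2 and the exon 9 clones 3 and 4, so the groups share no replicate number. With 2 clones a deletion, differences between deletions and differences between single clones cannot be told apart, and low genes are limited by a depth that TPM do not show.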
